A study of Mus musculus with 6 samples.

Results

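The platelet-derived growth factor (PDGF) genes were described here: the receptor-like gene Pdgfrl, the receptor genes Pdgfra and Pdgfrb, and the ligand genes Pdgfa, Pdgfb, Pdgfc and Pdgfd. They were chosen by gene symbol in the platform annotation, which gave all 7 of them among 16504 named genes, each through 1 spot. The family was selected on the measured Pdgfrl ratios, which were high against wild type in every mutant, so its own values are given as a description without a test, and the other 6 genes were tested. Expression was measured on 6 long-oligonucleotide arrays, each hybridised with cytoplasmic RNA of mutant and wild-type mouse embryonic fibroblasts, connective-tissue cells grown out of embryos of day 15.5. The mutants were a Wrn helicase in-frame deletion, a PARP-1 null and a Wrn-PARP1 double mutant, with 2 arrays each, and the strain was 129/Sv-Black Swiss for mutants and wild type. No other treatment is named, and cultures were kept in calf serum. Wrn is the RecQ helicase lost in human Werner syndrome, and PARP-1 is an enzyme that senses DNA strand breaks. Cells of 3 littermate embryos were pooled at passage 2, and the design text names a separate litter for a second pool of every genotype, so a genotype stands for at most 2 litters. Titles and source labels of the second double-mutant array name the double mutant, but its strain label reads wild type.

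PDGF ligands are dimers that bring receptor chains together and switch on their tyrosine kinases, which drives division and migration of mesenchymal cells such as fibroblasts, pericytes and smooth muscle cells. Pdgfra and Pdgfrb encode the receptor chains. PDGF-A and PDGF-B are cut inside the cell and secreted active, whereas PDGF-C and PDGF-D are secreted with a CUB domain that proteases must remove. Pdgfrl encodes a protein that resembles part of the receptors' extracellular immunoglobulin-like region and lacks a kinase domain. In human cells it was described as a candidate tumour suppressor gene.

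All values are log2 ratios, and positive ones are taken to mean more RNA in the mutant. That reading is likely rather than stated, and rests on the targeted gene: Parp1 had -2.61 and -2.30 on the PARP-1 null arrays and -2.97 and -2.59 on the double-mutant arrays, against -0.12 and -0.31 on the Wrn mutant arrays. A turned sign would mirror every direction given here. Wild-type RNA carried Cy5 and mutant RNA Cy3 on every array, and the wild type had no array of its own. A rise in all mutants, a low level in the wild-type pools and a dye bias of a probe therefore cannot be told apart, and a dye bias cancels only between mutants. A ratio carries no expression level, so the level of no PDGF gene is known and the fibroblast label could not be checked against marker levels. Correlations between arrays over named genes ran from 0.37 to 0.75. The labels do not tie an array to a litter, so the spread behind the p-values is that of duplicate arrays and may be technical. Precision is limited by having 2 arrays a genotype.

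Pdgfrl lay far above wild type in every mutant. Its log2 ratio was 2.90 and 3.48 on the Wrn mutant arrays, 2.90 and 3.20 on the PARP-1 null arrays, and 3.57 and 3.61 on the double-mutant arrays. These are means of 3.19 ± 0.40 (SD, n = 2) in the Wrn mutant, 3.05 ± 0.21 in PARP-1 null cells and 3.59 ± 0.030 in double-mutant cells, or 9.12-fold, 8.29-fold and 12.1-fold wild type. All 6 values fell between 2.90 and 3.61, with the double mutant at the top. The gap between duplicate arrays was 0.57 in the Wrn mutant, larger than that of 78.2% of named genes. It was 0.29 in PARP-1 null cells, larger than that of 53.4%, and 0.043 in double-mutant cells, larger than that of 21.0%. The double mutant was higher than the Wrn mutant by 0.40 (SE 0.24) and higher than the PARP-1 null by 0.54 (SE 0.24), while the PARP-1 null minus the Wrn mutant came to -0.14 (SE 0.24). Under scale normalization between arrays this order turned, with 3.67 for the Wrn mutant and 3.03 in double-mutant cells, so no order of the genotypes was read from Pdgfrl.

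Among all named genes, Pdgfrl stood between rank 6 and rank 32 from the top on 5 arrays, and at rank 203 on the second PARP-1 null array. Only 3 of the 16504 named genes were above 2 on all 6 arrays: Pdgfrl, the kidney transcription factor gene Pax2 and the imprinted growth factor gene Igf2. At the lower end, 22 named genes were below -2 on all 6 arrays. No other named gene had its lowest ratio as high as the lowest Pdgfrl value of 2.90.

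**Figure D1:**
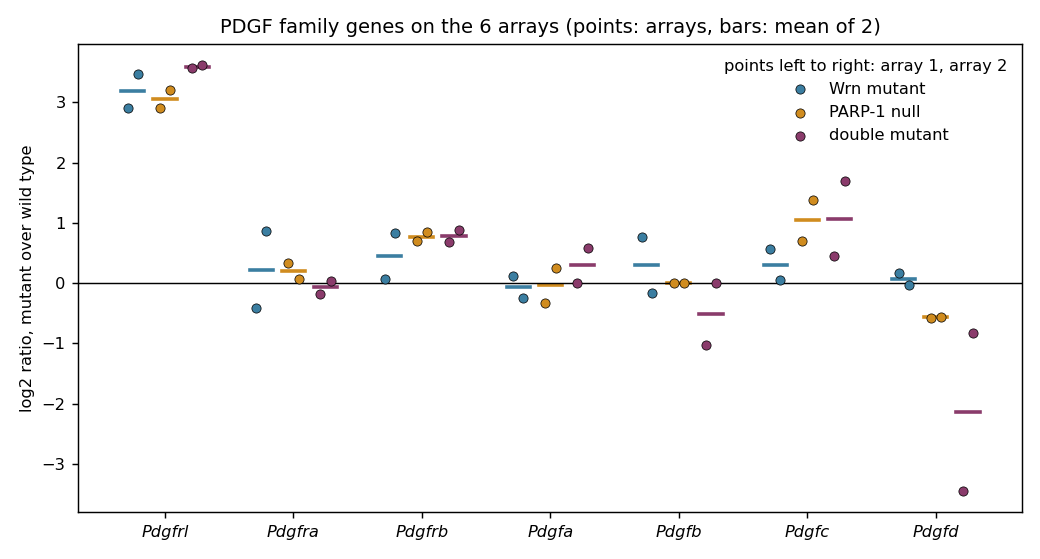
Log2 ratio of each PDGF family gene over wild type (vertical axis) on each array, with points for the 2 arrays of the Wrn mutant, the PARP-1 null and the double mutant, bars for their mean, and wild type at 0. Pdgfrl lies between 2.90 and 3.61 on all arrays, apart from the other 6 genes, whose highest value is 1.70 for Pdgfc and whose lowest is -3.44 for Pdgfd.

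The receptors and ligands did not share the size of the Pdgfrl ratio. On each array Pdgfrl exceeded the highest of the other 6 genes by between 1.81 and 2.89. The highest of them was Pdgfb at 0.76 and Pdgfra at 0.86 on the Wrn mutant arrays, Pdgfc at 0.70 and 1.38 on the PARP-1 null arrays, and Pdgfrb at 0.68 and Pdgfc at 1.70 on the double-mutant arrays. In the fit over all features (limma, Benjamini-Hochberg adjusted, threshold 0.05), 0 of the 6 genes passed for any genotype. At an unadjusted p under 0.05 the counts were 0 in the Wrn mutant, 1 in PARP-1 null cells and 2 in double-mutant cells. The share of named genes at an unadjusted p under 0.05 was not counted, here or for the lists and markers below. It is at least the share at the adjusted threshold, so no unadjusted count given here can be read as above the background. The background at the adjusted threshold, as a share of the named genes, was 2.35% for the Wrn mutant (1.01% higher, 1.34% lower). It was 7.19% for the PARP-1 null (3.33% higher, 3.87% lower) and 18.5% for the double mutant (10.1% higher, 8.38% lower). The family median was 0.26 in the Wrn mutant, 0.10 in PARP-1 null cells and 0.11 in double-mutant cells, beside a median of 0 over named genes in each. The upper 95% bounds of the 18 fitted ratios, which are not adjusted for their number, reached at most 2.22, for Pdgfc in double-mutant cells. All lay under the lowest Pdgfrl value, which is a description only, since the family was chosen on the Pdgfrl values. In the double mutant, Pdgfrb crossed the threshold without either Wrn mutant array, and Pdgfd without the second double-mutant array. In the latter fit Pdgfd rested on -3.44 alone, and the difference between its duplicates no longer counted in the spread. Neither crossing is read as support for a change. With exact zeros set to missing the double-mutant count was 2, Pdgfrb (adjusted p = 0.0457 in limma) and Pdgfd (adjusted p = 0.0336). In that setting 31.1% of named genes passed for the double mutant, beside 18.5% in the main fit.

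**Figure D2:**
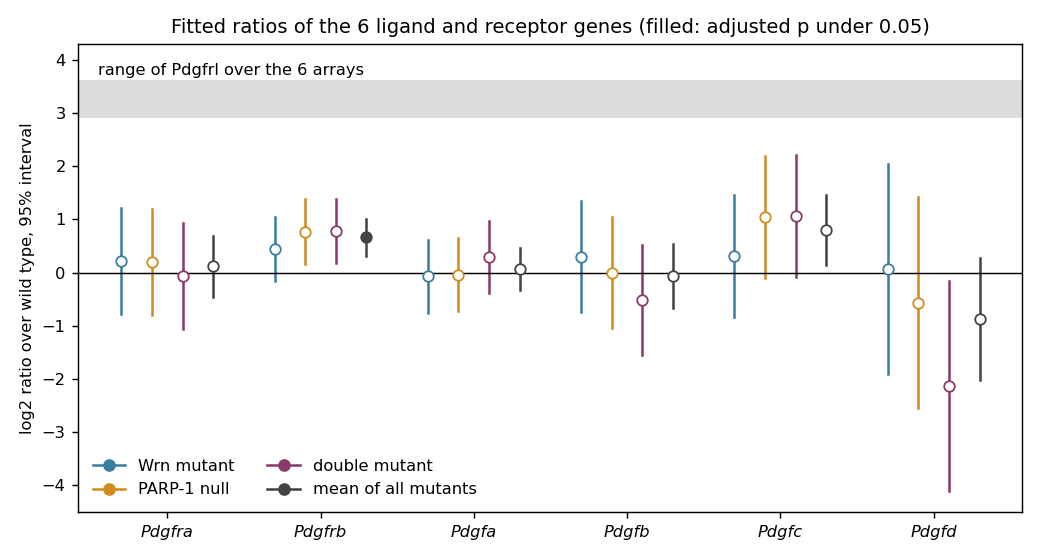
Fitted log2 ratios over wild type of the 6 ligand and receptor genes (points) with unadjusted 95% intervals (lines) for the Wrn mutant, the PARP-1 null, the double mutant and the mean of all mutants, filled where the adjusted p is under 0.05. Only Pdgfrb for the mean of all mutants is filled. No interval reaches the grey band, drawn for scale only, that spans Pdgfrl from 2.90 to 3.61.

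Pdgfrb, the receptor of PDGF-B and PDGF-D on pericytes, smooth muscle cells and fibroblasts, was above 0 on all 6 arrays. Its values were 0.063 and 0.82 in the Wrn mutant, 0.70 and 0.84 in PARP-1 null cells, and 0.68 and 0.88 in double-mutant cells. The first Wrn mutant array was the low one, and the other 5 lay close together. Its means were 0.44 ± 0.54 (SD, n = 2) in the Wrn mutant, 0.77 ± 0.10 in PARP-1 null cells and 0.78 ± 0.14 in double-mutant cells, with adjusted p-values of 0.325, 0.123 and 0.0866 (limma). Over the mean of all mutants Pdgfrb rose by 0.67 (SE 0.12, 95% interval 0.32 to 1.02, adjusted p = 0.0296 in limma), higher on 6 of 6 arrays. It was the only one of the 6 genes that passed there, in a comparison in which 32.3% of named genes passed, 16.8% as higher and 15.6% as lower, so 1 of 6 is not above the background. The call was lost without either PARP-1 null array and without either double-mutant array, and it held without either Wrn mutant array. Fewer of all named genes passed for that mean in every such fit, so the loss cannot be read as particular to Pdgfrb.

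Pdgfra, the receptor chain that binds PDGF-A, PDGF-B and PDGF-C and marks fibroblast lineages, had no common direction. It was -0.41 and 0.86 in the Wrn mutant, 0.34 and 0.076 in PARP-1 null cells, and -0.18 and 0.036 in double-mutant cells. The Wrn mutant arrays fell on opposite sides of 0, with a gap of 1.28, larger than that of 95.8% of named genes on this pair of arrays. The means were 0.23 ± 0.90 (SD, n = 2), 0.21 ± 0.19 and -0.070 ± 0.15, in the same order of genotypes, and the adjusted p-values ran from 0.796 to 1.0 (limma). In PARP-1 null cells the 95% interval was -0.79 to 1.21, so these data do not exclude a change within that range.

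Among the ligands, Pdgfc was the one above 0 on all 6 arrays. Pdgfc encodes a chain that signals through the alpha receptor after its CUB domain is removed. Its values were 0.57 and 0.044 in the Wrn mutant, 0.70 and 1.38 in PARP-1 null cells, and 0.44 and 1.70 in double-mutant cells. The second array was the higher one in PARP-1 null and double-mutant cells and the lower one in the Wrn mutant, and the double-mutant gap of 1.25 was larger than that of 94.5% of named genes. The means were 0.31 ± 0.37 (SD, n = 2) in the Wrn mutant, 1.04 ± 0.48 in PARP-1 null cells and 1.07 ± 0.89 in double-mutant cells, with adjusted p-values of 0.734, 0.210 and 0.158 (limma). Over the mean of all mutants Pdgfc was 0.81 (SE 0.23, adjusted p = 0.0751), which passed with exact zeros set to missing (adjusted p = 0.0198) and with arrays centred on spots that are not exactly 0 (0.0293). In those settings 46.7% and 37.1% of named genes passed for that mean, beside 32.3% in the main fit. Of all named genes 17.0% were above 0 on all 6 arrays, beside 2 of these 6, Pdgfrb and Pdgfc.

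Pdgfd encodes the other CUB-domain chain, a ligand of the beta receptor, and had the lowest values of the family. They were 0.17 and -0.034 in the Wrn mutant, -0.57 and -0.56 in PARP-1 null cells, and -3.44 and -0.82 in double-mutant cells. The PARP-1 null arrays nearly coincided, whereas the first double-mutant array stood far below all others and the second near the PARP-1 null. That gap of 2.62 was larger than that of 99.5% of named genes on the double-mutant arrays. The mean was 0.069 ± 0.15 (SD, n = 2) in the Wrn mutant, -0.57 ± 0.0058 in PARP-1 null cells and -2.13 ± 1.85 in double-mutant cells, and none passed (adjusted p = 1.0, 0.696 and 0.121 in limma). Over the mean of all mutants Pdgfd was -0.88 (SE 0.40, adjusted p = 0.189 in limma). It was -0.44 without the first double-mutant array and -1.31 without the second, and passed in both fits. Leaving out either array takes the gap of 2.62 out of the spread, so neither pass is read as support for a fall. Without the first double-mutant array the double-mutant value was -0.82.

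Pdgfa, a ligand of the alpha receptor, had no common direction either. It was 0.11 and -0.25 in the Wrn mutant, -0.33 and 0.25 in PARP-1 null cells, and 0.0025 and 0.59 in double-mutant cells. Signs were mixed within the first 2 genotypes, and the means of -0.070 ± 0.26 (SD, n = 2), -0.037 ± 0.41 and 0.30 ± 0.41, from Wrn mutant to double mutant, did not pass (adjusted p = 0.984, 1.0 and 0.479 in limma). Its 95% intervals were -0.75 to 0.61, -0.72 to 0.65 and -0.39 to 0.98, in the same order. These data do not exclude a change within those ranges.

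Pdgfb encodes the ligand that recruits pericytes to endothelium and binds both receptors. It was 0.76 and -0.16 in the Wrn mutant, exactly 0 on both PARP-1 null arrays, and -1.03 and exactly 0 in double-mutant cells. An exact 0 may be a measured ratio or a placeholder, which is not stated. In all, 17.9% of named genes were exactly 0 on 3 or more arrays, as Pdgfb was. Pdgfb therefore rests on the 3 other arrays, of which the Wrn mutant pair lay on both sides of 0. Its means were 0.30 ± 0.65 (SD, n = 2) in the Wrn mutant and -0.52 ± 0.73 in double-mutant cells, with adjusted p-values of 0.702 and 0.411 (limma).

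**Figure D3:**
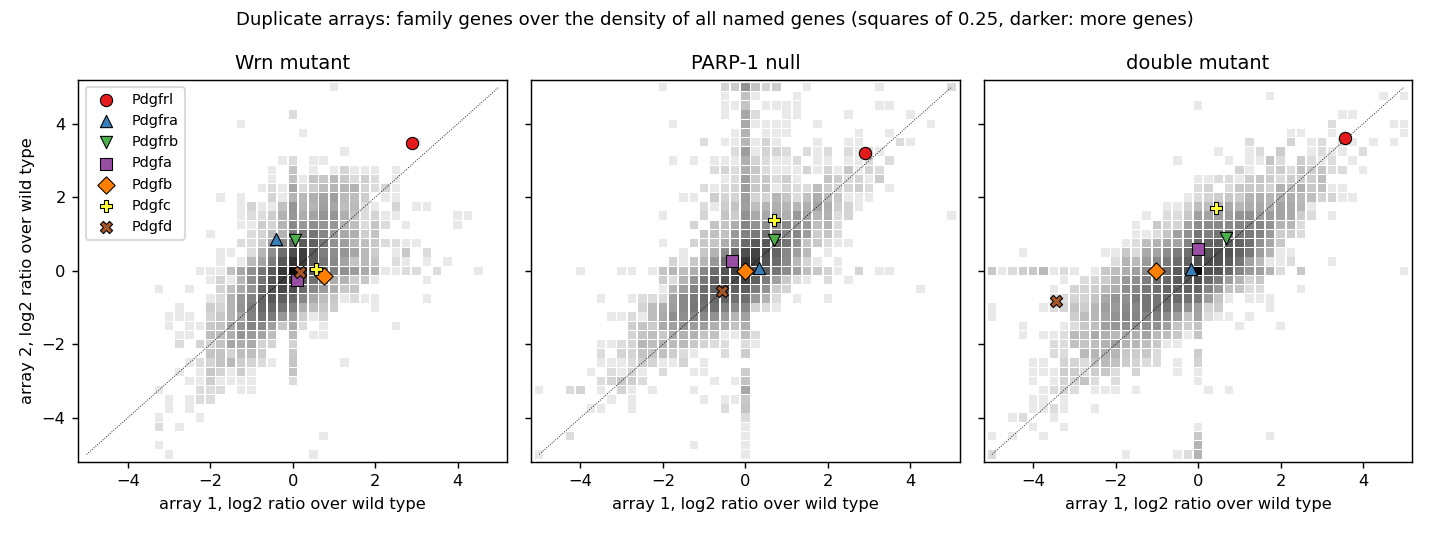
Log2 ratio over wild type on array 1 (horizontal) against array 2 (vertical) of each genotype for the PDGF family genes (coloured markers), over grey squares that are darker where more named genes lie, with values beyond 5 drawn at the edge. Pdgfrl sits near the dotted line of equal values in every genotype, while Pdgfd in double-mutant cells, at -3.44 and -0.82, and Pdgfra in the Wrn mutant, at -0.41 and 0.86, lie off it.

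Between genotypes, where a dye bias of a probe cancels, 0 of the 6 genes passed (limma), with 0 at an unadjusted p under 0.05 in each of the 3 comparisons. Of named genes 0% were called for the double mutant against either single mutant, and 0.00606%, which is 1 gene, for the PARP-1 null against the Wrn mutant. The largest fitted differences were those of Pdgfd. Its double-mutant minus Wrn mutant value was -2.20 (95% interval -5.0 to 0.60, adjusted p = 0.451) and its double-mutant minus PARP-1 null value -1.56 (95% interval -4.37 to 1.24, adjusted p = 0.772). For Pdgfc the double mutant exceeded the Wrn mutant by 0.76 (95% interval -0.86 to 2.39, adjusted p = 0.623), and the PARP-1 null exceeded it by 0.74 (95% interval -0.89 to 2.36, adjusted p = 0.794). Pdgfrb was within 0.34 of equal in all 3 comparisons, with 0.013 for the double mutant minus the PARP-1 null (95% interval -0.84 to 0.87). The intervals span more than 1 log2 unit in every case, so these data do not show that the genotypes were alike.

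The genes most like Pdgfrl were ranked by the root-mean-square difference from it over the 6 arrays, a measure of likeness in these ratios and of nothing else. The 5 nearest named genes were Pax2 (0.87), the retinaldehyde dehydrogenase gene Aldh1a1 (0.92), Gabrd, which encodes the delta subunit of the GABA-A receptor (0.94), Scel, which encodes sciellin of the cornified envelope (0.95), and Igf2 (0.96). Pax2 ranged from 2.14 to 2.75 and Igf2 from 2.13 to 2.81, both below Pdgfrl on every array. Aldh1a1 ranged more widely, from 1.87 to 4.28, and was above Pdgfrl on 4 arrays. None of the receptors and ligands was among these 5 genes. Pdgfc differed from Pdgfrl by 2.54, and 5.96% of named genes were nearer. For Pdgfrb the difference was 2.62 with 7.58% of named genes nearer, and for Pdgfd 4.38 with 94.8% nearer. Between them lay Pdgfra at 3.19 (39.7% nearer), Pdgfa at 3.23 (43.4%) and Pdgfb at 3.43 (66.2%).

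Pdgfrl lies on mouse chromosome 8, as does Wrn, in the RefSeq gene order of GRCm38.p6, with 34 measured genes between them. Of those 34 genes, 1 rose and 0 fell in the Wrn mutant, 1 rose and 0 fell in PARP-1 null cells, and 3 rose and 3 fell in double-mutant cells (limma), with a median of 0 in each. The shares called of all named genes were 2.35%, 7.19% and 18.5%, in the same order, and the interval was not compared with other intervals. Next to Pdgfrl on one side is Slc7a2, an arginine transporter gene, which was above 0 on all arrays at 0.43 to 1.42 and did not pass (adjusted p = 0.117 in the Wrn mutant, 0.123 in PARP-1 null cells and 0.186 in double-mutant cells, limma). On the other side Mtus1, a gene of a microtubule-associated protein, was below 0 on all arrays, at -1.58 to -0.20, and so was the fibrinogen-like gene Fgl1, at -1.75 to -0.13. Neither passed in any genotype. Adam20 and Gm16348 were exactly 0 on all 6 arrays, and Adam25 was exactly 0 on 4. For Pdgfrb, on chromosome 18, none of the 3 measured genes on either side passed in any genotype.

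**Figure D4:**
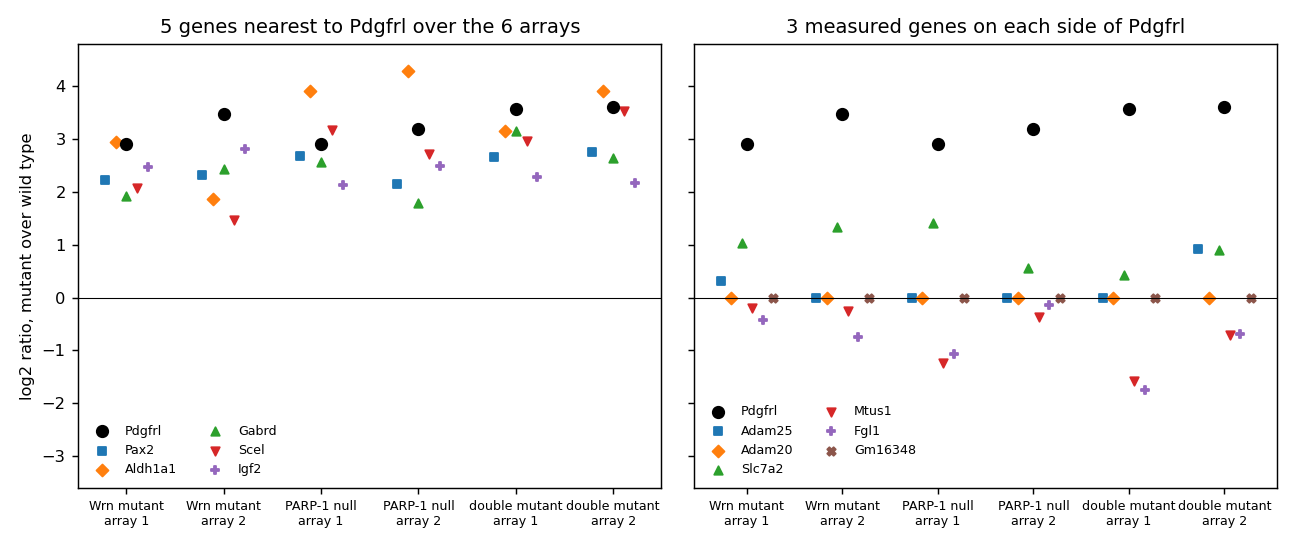
Log2 ratio over wild type on each array (horizontal axis, 2 arrays per genotype) of Pdgfrl (black) with the 5 named genes nearest to it in root-mean-square difference (left) and with the 3 measured genes on each side of it on chromosome 8 (right). The nearest genes lie between 1.47 and 4.28, whereas the highest neighbour value is 1.42 for Slc7a2 and both Mtus1 and Fgl1 stay below 0.

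Genes that pass on, process or answer PDGF signals were taken from 4 lists, of whose 110 genes 99 were measured. Downstream of the receptors, the 39 measured adaptor, kinase and phosphatase genes had medians of -0.024 in the Wrn mutant, -0.0066 in PARP-1 null cells and 0 in double-mutant cells. None passed for either single mutant (limma), with 9 at an unadjusted p under 0.05 for the Wrn mutant and 13 for the PARP-1 null. There the lowest p-values belonged to Stat5b at -0.43 ± 0.076 and Ptpn2 at 0.28 ± 0.12 in the Wrn mutant, and to Akt2 at 0.59 ± 0.00072 and Cbl at -0.83 ± 0.087 in PARP-1 null cells (n = 2). In the double mutant 3 rose and 5 fell, 20.5% of the list beside 18.5% of named genes. Pik3ca, the catalytic subunit of the lipid kinase that receptors recruit, was -2.64 and -1.82 there, a fall to -2.23 ± 0.58 (adjusted p = 0.0232). Nras, a small GTPase gene, was -0.67 on both arrays (adjusted p = 0.0271). Ptpn1, a phosphatase that acts on activated receptors, rose by 0.54 ± 0.076 (adjusted p = 0.0216) and Akt2, a kinase downstream of the lipid kinase, by 0.80 ± 0.21 (adjusted p = 0.0229, all limma).

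Ligand-processing proteases and other extracellular regulators leaned below 0, with medians of -0.31 over 14 measured genes in the Wrn mutant, -0.45 in PARP-1 null cells and -0.59 in double-mutant cells. In PARP-1 null cells 3 fell and 0 rose, 21.4% of the list beside 7.19% of named genes. Plau, the urokinase that removes the CUB domain of PDGF-D, was -1.17 and -1.55 there (mean -1.36 ± 0.27, adjusted p = 0.0289 in limma). The proprotein convertase gene Pcsk6 was -1.49 ± 0.027 (adjusted p = 0.0319), and the sheddase gene Adam17 -1.54 and -2.46 (adjusted p = 0.0412). In the double mutant 0 rose and 2 fell, Pcsk6 at -1.06 ± 0.14 (adjusted p = 0.0347) and Adam17 at -1.55 ± 0.14 (adjusted p = 0.0394), 14.3% of the list beside 18.5% of named genes. In the Wrn mutant none passed (3 at an unadjusted p under 0.05), with Adam17 at -1.42 ± 0.27 (adjusted p = 0.0905) and Plau at -0.71 ± 0.026 (adjusted p = 0.102).

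Early response genes, which fibroblasts switch on within hours of PDGF or serum, had medians of -0.17 over 33 measured genes in the Wrn mutant, 0.45 in PARP-1 null cells and 0.80 in double-mutant cells. None passed in the Wrn mutant (7 at an unadjusted p under 0.05, limma), where Ccnd1 at -1.12 ± 0.097 and Fosl1 at -1.13 ± 0.25 had the lowest p-values. In PARP-1 null cells 5 rose and 1 fell, 18.2% of the list beside 7.19% of named genes. The nuclear receptor gene Nr4a1 was 1.77 and 1.68 there (adjusted p = 0.0106), Ier2 1.28 and 1.09 (adjusted p = 0.0212) and the zinc finger gene Egr2 2.09 and 1.33 (adjusted p = 0.0391). Ccnd1, the cyclin D1 gene, fell, at -1.44 and -1.01 (adjusted p = 0.0427). In the double mutant 7 rose and 1 fell, 24.2% of the list beside 18.5%. Nr4a1 was 1.98 and 2.21 (adjusted p = 0.0104), Jun 0.61 and 0.71 (adjusted p = 0.0154), Ier2 0.98 and 1.33 (adjusted p = 0.0169) and Egr2 2.38 and 2.13 (adjusted p = 0.0180). Serum and other growth factors induce these genes too.

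Among 13 measured relatives of the receptors and ligands, Vegfc, a growth factor gene of the wider PDGF and VEGF family, was high in all mutants. It was 1.0 and 1.48 in the Wrn mutant, 1.13 and 1.44 in PARP-1 null cells, and 1.89 and 1.91 in double-mutant cells. Vegfc rose in PARP-1 null cells (1.28 ± 0.21, adjusted p = 0.0334) and in double-mutant cells (1.90 ± 0.0089, adjusted p = 0.0132), and did not pass in the Wrn mutant (1.24 ± 0.34, adjusted p = 0.0503, limma). Flt3l, the ligand of the receptor kinase Flt3, fell in double-mutant cells, at -1.03 ± 0.16 (adjusted p = 0.0217), and was -0.84 ± 0.24 in the Wrn mutant (adjusted p = 0.0598, n = 2). In the Wrn mutant none passed (4 at an unadjusted p under 0.05). In PARP-1 null cells 1 of 13 passed, 7.69% beside 7.19% of named genes, and in double-mutant cells 2, or 15.4% beside 18.5%. Of the 30 calls of list genes against wild type, 0 held with each array left out in turn. The early response count ran from 0 to 2 in PARP-1 null cells and from 0 to 5 in double-mutant cells with 1 array left out, and the processing count from 0 to 1 in each. For the PARP-1 null the early response count was 0 without its second array, and the processing count was 0 without its second array or either double-mutant array. For the double mutant both counts were lost without either of its own arrays. In every fit with 1 array left out, fewer of all named genes passed for the PARP-1 null and the double mutant. The losses therefore cannot be read as particular to these lists. The signalling count of the double mutant ran from 0 to 2, being 0 without its first array, and the relatives count from 0 to 2 in PARP-1 null cells and from 0 to 3 in double-mutant cells.

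**Figure D5:**
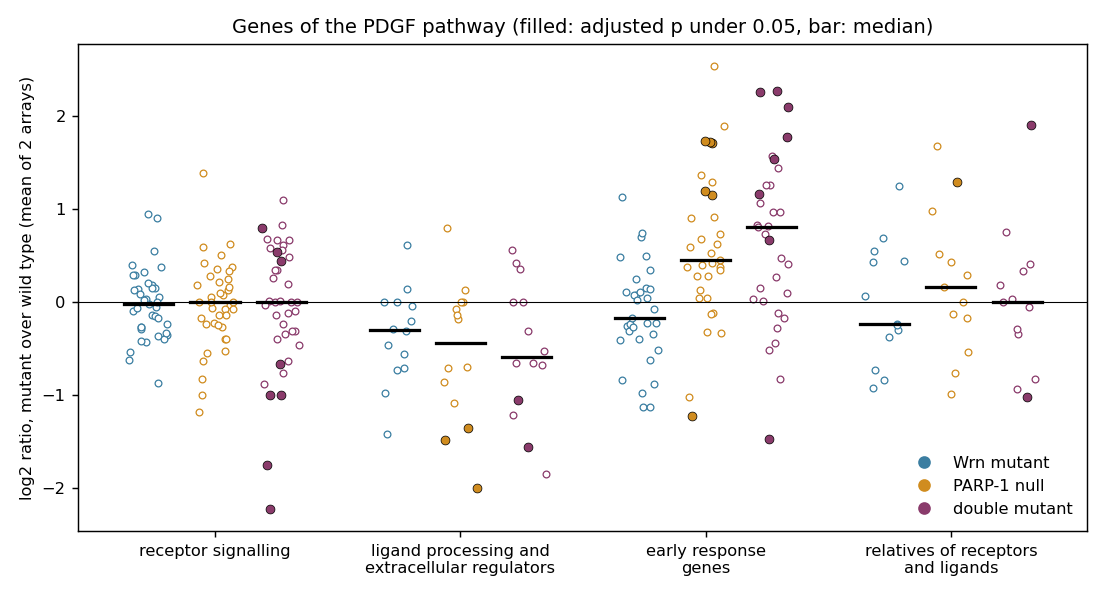
Log2 ratio over wild type (mean of 2 arrays, vertical axis) of the measured genes of the 4 PDGF pathway lists in the Wrn mutant, the PARP-1 null and the double mutant, filled where the adjusted p is under 0.05, with bars for list medians and wild type at 0. The early response genes have medians of -0.17, 0.45 and 0.80 from Wrn mutant to double mutant, and the processing genes medians of -0.31, -0.45 and -0.59.

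Markers of cell types that carry or secrete PDGF, and of other types a culture could hold, were counted in the same way. No marker of the 6 types passed in the Wrn mutant (limma, 12 at an unadjusted p under 0.05), and the shares called of all named genes were 7.19% in PARP-1 null cells and 18.5% in double-mutant cells. Fibroblast markers other than Pdgfra had medians of 0.48 over 13 genes in the Wrn mutant, 0.81 in PARP-1 null cells and 0.59 in double-mutant cells, with 0, 1 and 2 that rose and 0, 0 and 1 that fell, which is 7.69% of the list in PARP-1 null cells and 23.1% in double-mutant cells. The intermediate filament gene Vim rose in PARP-1 null cells at 2.05 and in double-mutant cells at 2.51, where Prrx1 rose too, at 0.59, and the collagen receptor gene Ddr2 fell, at -0.88. Pericyte and smooth muscle markers other than Pdgfrb, 12 in number, had medians of 0.11, 0.20 and -0.073, with 1 that fell in PARP-1 null cells, the aminopeptidase gene Anpep at -0.95, and 1 that rose and 1 that fell in double-mutant cells, Tagln at 1.95 and Anpep at -1.30. These are 8.33% and 16.7% of that list. Endothelial markers, a source of PDGF-B, had medians of 0.027, -0.070 and 0 over 10 genes, with 1 that rose in double-mutant cells, Cldn5 at 0.50, or 10.0% of the list beside 18.5% of named genes. Macrophage and platelet markers had medians of 0.90, 0.21 and 0.40 over 8 genes, with 1 that rose in double-mutant cells, the platelet chemokine gene Ppbp at 4.33, or 12.5% beside the same 18.5%. The 5 glial and neural crest markers had medians of -0.24, -0.32 and -0.22. Sox10 rose in PARP-1 null cells at 2.24, which is 20% of that list. In double-mutant cells Sox10 at 3.59 and Foxd3 at 1.8 rose, or 40% of it. The other 3 did not pass in either and were below 0 in both, with Erbb3 at -0.61 and -0.22, S100b at -0.69 and -0.96, and Ngfr at -0.32 and -0.50, PARP-1 null cells before double-mutant cells. The 7 epithelial markers had medians of -0.15, -0.017 and 0, and 1 fell in PARP-1 null cells, Epcam at -1.42, or 14.3% of the list. In bulk RNA fewer cells of a type and less RNA per cell cannot be told apart, and the part of cell makeup in the PDGF values was not tested.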

How the data were processed

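The authors made the log10 ratios in the deposited table, 22393 spots on each of 6 arrays, by steps not given here. The base 10 was read from the values, since sizes stop at exactly 2 on every array. Base, centring, spot filters and direction were not given in the sources used here. Array medians were 0, and 16.9% to 23.7% of spots were exactly 0. Multiplying by 3.32, the log2 of 10, gave log2 ratios. The platform annotation named 18218 spots with 1 symbol, 16 with several and 4159 with none, and 16462 of 16504 named genes were in RefSeq by Entrez ID. Spots of a gene were averaged. All 20679 features were fitted with limma 3.58.1 (R 4.3.3), a coefficient for each genotype and empirical Bayes moderation (3 residual and 0.66 prior degrees of freedom), and Benjamini-Hochberg adjustment ran across the features, with 0.05 as the threshold. The fit was tested on simulated data. Plots were drawn with matplotlib 3.10.9.

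Genes and lists were chosen with earlier results of these data known. Named genes were the 7 family genes, Parp1 and Wrn, up to 4 genes per list and genotype that passed with the lowest p (otherwise the 2 with the lowest p), the 5 nearest genes to Pdgfrl, and 3 measured neighbours on each side of Pdgfrl and of Pdgfrb. Called markers and genes above 2 on all arrays were named after their values were seen. The Wrn probe did not pass for any genotype (0.71 for the Wrn mutant, -0.12 for the PARP-1 null, 0.48 for the double mutant), and where it lies relative to the deletion is not known here, so it checks nothing. Alternatives were scale normalization, exact zeros as missing, single spots, another centring, separate fits, robust empirical Bayes, the array number as a block, and each array left out.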

Additional observations from a re-analysis of the deposited data

How the results depend on the processing

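Among values of the 6 ligand and receptor genes under settings that keep all arrays, 280 kept their direction and side of the threshold, 6 turned and 4 newly passed. A direction could turn only with scale normalization, zeros missing or the other centring. Single spots, the block, robust moderation and separate fits leave these ratios unchanged, so the 280 overstates how stable the directions were. With scale normalization Pdgfb over the mean of all mutants became 0.0023, the double mutant minus PARP-1 null became -0.13 for Pdgfrb and -0.11 for Pdgfc, and the PARP-1 null minus Wrn mutant became 0.047 for Pdgfra and -0.0053 for Pdgfa, the last -0.016 when centred on spots not exactly 0; Pdgfrl became 3.67 for the Wrn mutant and 3.03 for the double mutant. With zeros missing, the count of these 6 genes that passed became 2 for the double mutant and 2 for the mean of all mutants. With the other centring it became 2 for that mean. Of named genes 31.1%, 46.7% and 37.1% passed there, in the same order. For the lists, in the order processing, early response and relatives, scale normalization gave 2, 1 and 2 for the Wrn mutant, and exact zeros missing gave 1, 2 and 2; the other centring gave 1 for early response and 1 for relatives. For the PARP-1 null, scale normalization gave 2 signalling, 2 early response and 2 relatives calls, zeros missing 4, 10 and 2, the other centring 4 signalling calls, single spots 1 signalling call, and robust moderation 2 early response calls. For the double mutant, scale normalization gave 0 processing and 1 early response calls, and zeros missing 15 early response and 4 relatives calls. Shares of all named genes that passed moved too, from 2.35%, 7.19% and 18.5% in the main fit. For the Wrn mutant they were 5.64% with scale normalization, 5.87% with zeros missing and 3.79% with the other centring. For the PARP-1 null they were 7.37%, 15.3% and 9.88%, with 7.11% for single spots and 4.67% for robust moderation. For the double mutant, scale normalization gave 6.28% and zeros missing 31.1%. Fits of the compared genotypes alone gave 0 for processing, early response and relatives in the PARP-1 null. In the double mutant they gave 0 for all 4 lists. Of all named genes 0% passed in those fits for any genotype against wild type, so no list could count above 0. The array numbers only name arrays: deviations of same-numbered arrays correlated at -0.11, -0.17 and 0.17, and the replicate block gave 0 for those 3 lists in the PARP-1 null, and 0 signalling, 0 processing and 1 relatives calls in the double mutant, while Pdgfrb kept an adjusted p of 0.0393 (limma) for the mean of all mutants. With that block 0% of all named genes passed for the PARP-1 null, so its list counts could only be 0. For the double mutant 7.36% passed and for the mean of all mutants 23.4%. With 1 array left out, the lone array of a genotype is assumed to vary like the others. Fewer of all named genes passed in each such fit for the PARP-1 null, the double mutant and the mean of all mutants. The 6-gene count ran from 0 to 1 for the double mutant and for the mean of all mutants. List counts ran from 0 to 1 (early response) and 0 to 2 (relatives) for the Wrn mutant, from 0 to 1 (processing), 0 to 2 and 0 to 2 for the PARP-1 null, and from 0 to 2 (signalling), 0 to 1, 0 to 5 and 0 to 3 for the double mutant. Values that turned ran, against wild type, from -0.41 to 0.86 (Pdgfra), -0.25 to 0.11 (Pdgfa), -0.16 to 0.76 (Pdgfb) and -0.034 to 0.17 (Pdgfd) for the Wrn mutant, -0.33 to 0.25 (Pdgfa) for the PARP-1 null, -0.18 to 0.036 (Pdgfra) for the double mutant, and -0.092 to 0.33 (Pdgfra), -0.035 to 0.16 (Pdgfa) and -0.24 to 0.10 (Pdgfb) for the mean. Double mutant minus Wrn mutant ran from -0.93 to 0.34 (Pdgfra) and -0.042 to 0.72 (Pdgfrb), double mutant minus PARP-1 null from -0.086 to 0.11 (Pdgfrb) and -0.60 to 0.65 (Pdgfc), and PARP-1 null minus Wrn mutant from -0.66 to 0.62 (Pdgfra), -0.055 to 0.71 (Pdgfrb), -0.26 to 0.32 (Pdgfa) and -0.76 to 0.16 (Pdgfb). The causes were not tested beyond the fewer arrays in those fits. Signal over background is unknown for these ratios, so dim spots could not be set apart.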
